A study of Mus musculus and Homo sapiens with 9 samples.

Results

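R-loop peaks of 2 unperturbed mouse embryonic fibroblast (MEF) cultures were compared: a culture labelled Mcm8 wildtype (WT) and a culture labelled shControl, whose genotype is given as control. Inside the deposited lists the shControl peaks are named shD1 and the shDdx5 peaks shD2, which the sources used here do not explain. The groups follow the labels, so the unperturbed state of the shControl culture rests on its label. A WT and a shControl peak counted as shared if they overlapped by 1 bp or more. Of 6481 WT and 12259 shControl peaks, 1395 WT and 1396 shControl peaks met this rule and formed 1398 overlapping pairs, which left 5086 WT-only and 10863 shControl-only peaks. These are 2 of the 9 libraries of the series.

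An R-loop is a stretch of RNA paired with the template strand of DNA, with the other DNA strand left single. R-loops form mostly while RNA is being made, often near the start of genes where the DNA is rich in CpG and the RNA strand rich in G, and they are removed by RNase H enzymes and by helicases. The S9.6 antibody binds the RNA-DNA hybrid, and in CUT&Tag an antibody-directed transposase cuts and tags the DNA beside the bound sites. S9.6 also binds other structured or double-stranded RNA, so an S9.6 peak is a site of antibody-directed tagging and not in itself proof of a hybrid.

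MEFs are connective-tissue cells grown from mouse embryos; in this study they came from the fetal trunk on a mixed C57BL/6J and ICR background and were immortalised with an SV40 gene delivered by lentivirus. The WT culture is the control of Mcm8 knockout (KO) MEFs, which lack a helicase of the minichromosome maintenance family. The shControl culture is the control of shDdx5 MEFs, in which the RNA helicase gene Ddx5 was knocked down by an adenovirus carrying a hairpin. The sources used here do not say whether the shControl cells carried a virus with an inactive hairpin, from which embryo or line either culture came, or whether the embryos were male or female. A further MEF library was prepared with no primary antibody. All of these cells share the immortalising gene, and each group is 1 library of 1 culture. Culture, virus and library preparation therefore cannot be told apart in any difference between WT and shControl, no test between them was possible, and the intervals below cover counting error only.

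Depth was close in the 2 lists. It was recovered from the peaks' own p-values and fold enrichments as 6490 fragments per Mb of genome for WT and 6822 for shControl, a ratio of 1.05, against 720 for the no-antibody library. The shControl list nevertheless held 1.89 times as many peaks, which covered 4.07 Mb at a mean width of 332 bp, against 2.43 Mb at 374 bp in WT. Both lists were made mostly of weak peaks: 32.7% of WT and 28.1% of shControl peaks had a q value of 0.05 or lower, and the median fold enrichment (summit signal over local background) was 3.56 and 3.41. The lowest summit signal of a called peak was 7 fragments in WT and 6 in shControl, so a site below that level would have gone uncalled. This series holds no RNA library, and the paper's RNA sequencing of WT and KO MEFs was not used here. Fibroblast identity was therefore not checked by expression, and the marker promoters are given as peaks only. Of 15 fibroblast marker genes, 3 had a WT and 2 a shControl promoter peak. Of 19 markers of other cell types, 0 and 1 did. Over all protein-coding genes the shares were 11.3% and 14.7%, so these counts do not tell the cell type.

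The sites at which both cultures had strong peaks lay mainly at CpG-bearing gene starts, and a few of their sequences are shown first. Each line gives 120 bases of the mouse genome (mm10) nearest the summits, written 5′ to 3′ on the strand of the gene, with every CpG in capitals. The first 5 lines are the protein-coding promoters among the 10 strongest shared promoter sites, without a 2-copy site at Gm10801. They are Garnl3 at chr2:33130950-33131069, Dazap1 at chr10:80261195-80261314, Carm1 at chr9:21546466-21546585, Camsap1 at chr2:25983400-25983519 and Sertad2 at chr11:20542954-20543073, on the minus strand for Garnl3 and Camsap1 and on the plus strand for the others.
Garnl3: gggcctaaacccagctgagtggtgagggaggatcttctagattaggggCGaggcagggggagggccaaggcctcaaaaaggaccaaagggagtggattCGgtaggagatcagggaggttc
Dazap1: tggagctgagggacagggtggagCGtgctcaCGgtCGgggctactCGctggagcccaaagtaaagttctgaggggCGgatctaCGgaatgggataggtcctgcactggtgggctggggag
Carm1: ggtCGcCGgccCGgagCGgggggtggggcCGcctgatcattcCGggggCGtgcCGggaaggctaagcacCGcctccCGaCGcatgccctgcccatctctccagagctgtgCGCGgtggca
Camsap1: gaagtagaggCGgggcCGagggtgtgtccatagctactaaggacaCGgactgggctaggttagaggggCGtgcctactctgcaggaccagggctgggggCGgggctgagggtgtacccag
Sertad2: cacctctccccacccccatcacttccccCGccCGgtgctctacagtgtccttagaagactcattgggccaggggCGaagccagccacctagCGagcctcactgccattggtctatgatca

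The next 3 lines are strong sites of 1 culture. They are the WT-only promoter of Wee1 (chr7:110121787-110121906, plus strand), the WT-only intronic site in Fbxw4 (chr19:45650118-45650237, minus strand) and the shControl-only site downstream of the Per2 start (chr1:91458263-91458382, minus strand).
Wee1: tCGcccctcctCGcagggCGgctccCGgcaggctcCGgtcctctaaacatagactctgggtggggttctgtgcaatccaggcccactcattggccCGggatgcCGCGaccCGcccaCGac
Fbxw4: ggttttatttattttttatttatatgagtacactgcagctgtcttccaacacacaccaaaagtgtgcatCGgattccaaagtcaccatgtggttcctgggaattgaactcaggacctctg
Per2: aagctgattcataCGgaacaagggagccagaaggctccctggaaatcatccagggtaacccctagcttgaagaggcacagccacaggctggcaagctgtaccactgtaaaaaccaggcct
The 5 shared stretches held between 2 CpGs (Garnl3) and 13 (Carm1), and 4 of the 5 held 4 or more runs of at least 3 G on the gene's strand, with 8 such runs in Camsap1 and 2 in Sertad2. Wee1, although called in WT alone, held 10 CpGs, while Fbxw4 and Per2 held 1 each.

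Recurrence between the 2 cultures was low over the whole lists. Of the WT peaks, 21.5% (95% Wilson interval 20.5 to 22.5) overlapped a shControl peak, and of the shControl peaks 11.4% (10.8 to 11.96) overlapped a WT peak. The bases in common were 18.4% of those covered in WT and 11.0% of those in shControl. For comparison, 1.23% (0.993 to 1.53) of WT and 0.832% (0.686 to 1.01) of shControl peaks overlapped a peak of the no-antibody library, whose list held 4314 peaks. That library was much shallower, at 720 fragments per Mb against 6490 in WT, so background sites may have gone uncalled there.

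The 2 unperturbed cultures shared fewer sites with each other than either did with the perturbed cultures. Of the same 6481 WT peaks, 24.5% had a KO peak and 29.9% a shDdx5 peak, which is 2.98 percentage points (95% interval 1.94 to 4.02) and 8.36 points (7.34 to 9.38) more than had a shControl peak. Of the 12259 shControl peaks, 13.9% had a KO peak and 19.4% a shDdx5 peak, 2.53 points (1.95 to 3.11) and 7.99 points (7.36 to 8.63) more than had a WT peak. The KO list was longer than the WT list and shorter than the shControl list, at 9605 peaks, and the shDdx5 list held 11768. To remove the effect of list length, the 6481 strongest peaks by p-value were taken from each S9.6 list. The WT and shControl lists then shared 18.02% (17.1 to 18.98), the lowest of the 6 pairs of lists, followed by shControl and KO at 20.3% (19.3 to 21.3), WT and KO at 22.5%, shControl and shDdx5 at 25.2%, WT and shDdx5 at 25.9% and KO and shDdx5 at 30.04%. The WT and shControl pair was also lowest with the 4000, 2000, 1000 and 500 strongest peaks, numbers chosen after seeing the data, although at 500, 1000 and 2000 the interval of its difference from the next pair included 0. The lists also differed in strength, since 60.5% of shDdx5 and 36.1% of KO peaks had a q value of 0.05 or lower. The part of strength, culture or perturbation in this order was not tested.

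Recurrence rose with the strength of the peak in both directions. Among WT peaks, 6.91% (5.77 to 8.25) of the weakest quartile group by p-value were shared and 46.7% (44.2 to 49.1) of the strongest, a difference of 39.8 points (37.0 to 42.4). Among shControl peaks these shares were 3.36% and 29.0%, a difference of 25.7 points (23.9 to 27.4). Nearly all of the strongest peaks had a partner of any strength in the other full list: 49 of the 50 strongest WT peaks and 50 of the 50 strongest shControl peaks. Further down, 91 and 94 of the strongest 100 recurred, then 360 and 347 of the strongest 500, and 584 and 537 of the strongest 1000. With both lists cut to their 500 strongest peaks, only 185 (37%) were shared, and 333 (33.3%) with both cut to 1000. Wider peaks recurred more as well, from 10.3% of the narrowest quartile group of WT peaks (235 to 274 bp) to 41.9% of the widest (425 to 3514 bp).

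Shared peaks lay at promoters far more often than the rest. A promoter here is a peak midpoint within 1 kb of an annotated transcription start site (TSS). Of the shared WT peaks, 71.8% (69.4 to 74.1) were at promoters, against 27.6% (26.4 to 28.9) of WT-only peaks, a difference of 44.2 points (41.5 to 46.8, Newcombe interval). For shControl the shares were 71.8% and 21.5%, a difference of 50.3 points (47.7 to 52.7), and 8.41% of no-antibody peaks were at promoters. Seen the other way, 41.6% of WT peaks at promoters were shared, against 8.55% of those in introns, 8.26% in exons and 11.5% between genes. The shControl values were 30.01%, 4.26%, 3.31% and 4.77%.

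The promoter difference was present in all 4 quartile groups by p-value of both lists, but not when both lists were limited to their strongest peaks. In the weakest quartile group of WT peaks, 16.9% of promoter peaks and 3.74% of the others were shared, and in the strongest quartile group 60.7% and 23.8%. In shControl the shares were 10.4% and 1.99% in the weakest quartile group and 49.3% and 11.1% in the strongest. The interval of the difference lay above 0 in each of the 4 quartile groups of both lists. Both lists were then limited to q values of 1e-05 or lower, leaving 196 WT and 198 shControl peaks. A shared peak here needed a partner that also passed the limit. The difference turned: promoters were 7.02 points less frequent among shared than unshared WT peaks (interval -19.6 to 5.01) and 14.0 points less frequent for shControl (-26.0 to -2.59). Against the full lists, 167 of the 196 WT and 174 of the 198 shControl peaks were shared. Most peaks unshared under the limit thus had a weaker partner.

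**Figure D1:**
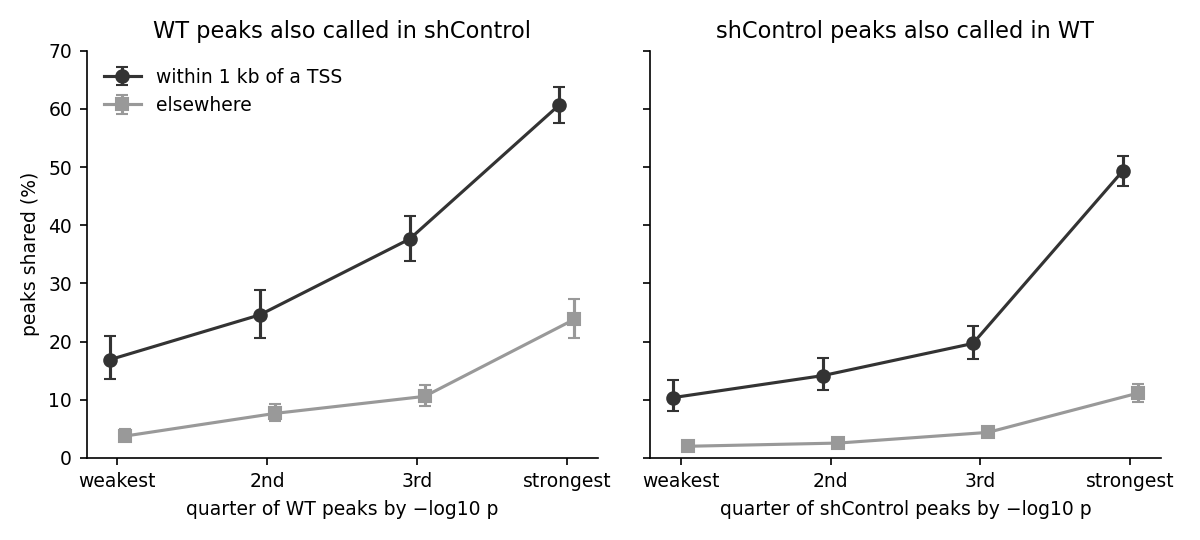
Share of WT peaks also called in shControl (left) and of shControl peaks also called in WT (right), in percent on the y axis, by quartile group of the list's −log10 p on the x axis, for peaks within 1 kb of a TSS (circles) and elsewhere (squares). Bars are 95% Wilson intervals; in both panels the promoter line lies above the other in every quartile group, reaching 60.7% in WT and 49.3% in shControl.

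Recurrence fell with distance from the TSS within the promoter window too. Of WT peaks with a midpoint at most 250 bp from a TSS, 47.4% (45.0 to 49.8) were shared, 38.2% between 250 and 500 bp, 15.7% (12.1 to 20.1) between 500 and 1000 bp and 11.9% (9.77 to 14.4) between 1000 and 3000 bp. In shControl the same steps gave 37.4%, 27.3%, 7.35% and 6.81%. Summits of shared promoter peaks lay on the upstream side of the nearest TSS more often than those of unshared ones: 41.2% (38.2 to 44.3) of the shared and 48.5% (45.9 to 51.2) of the WT-only promoter summits were downstream, with median offsets of -38 and -9 bp. In shControl 41.0% and 50.2% were downstream.

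The shared pairs were chosen by overlap, so their positions are given as a description. The median overlap was 286 bp, 0.565 of the length the 2 peaks spanned together, and the summits lay a median of 116 bp apart (quartiles 46 and 221), within 50 bp at 27.0% of pairs. The median fold enrichment was 3.95 in WT and 4.04 in shControl, and the log2 ratio of WT to shControl had a median of -0.03 with quartiles of -0.23 and 0.20. Across the 1398 pairs the Spearman correlation of the fold enrichments was 0.44, a description over sites that share the same 2 libraries. The values differed by no more than 2-fold at 1397 pairs, where the quartiles of the fold at shared peaks were 3.49 and 4.59 in WT and 3.51 and 4.67 in shControl. The exception, named after its values were seen, was the pair at Gm13341 on chromosome 2, with a fold of 10.6 in WT and 3.68 in shControl and a peak in the no-antibody list as well.

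**Figure D2:**
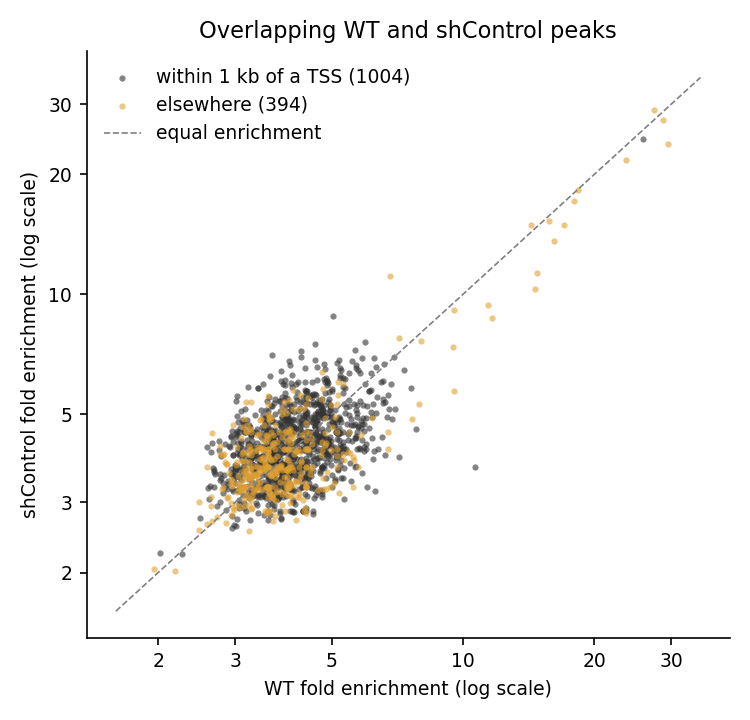
Fold enrichment in WT (x axis) and in shControl (y axis), both on log scales, at the 1398 overlapping pairs, with 1004 pairs within 1 kb of a TSS in dark grey and 394 elsewhere in yellow. Most pairs form 1 cloud around medians of 3.95 and 4.04, and a chain of 13 pairs with a fold of at least 10 in both, 12 of them away from promoters, runs along the dashed line of equal enrichment.

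The highest enrichments of both cultures were at a small set of sites away from protein-coding promoters. At 13 pairs the fold was at least 10 in both lists. Of these, 12 lay away from promoters, all 13 were also called in KO and shDdx5, and 5 were called in the no-antibody list. Their summits lay 0 to 40 bp apart, with a median of 3 bp.

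Among shared sites away from promoters, the strongest by the lesser of the 2 q values lay between genes at chr11:109011646-109012160, 4252 bp downstream of the start of the pseudogene Gm11668. Its fold was 27.4 in WT, 29.0 in shControl, 29.2 in KO, 27.9 in shDdx5 and 17.2 without antibody. An exonic site in Lars2, the mitochondrial leucyl-tRNA synthetase gene, at chr9:123461792-123462265 had folds of 29.5 in WT, 23.8 in shControl, 32.0 in KO and 28.5 in shDdx5, and 11.3 without antibody. At both sites all 4 S9.6 libraries were high and the printed no-antibody fold was the lowest. The no-antibody library held 720 fragments per Mb against 6490 in WT, and the fold adds 1 to signal and background. At so low a depth this lowers the fold, so no-antibody and S9.6 folds cannot be ranked here or at the promoters below.
Near Gm5466 (chr2:181917429-181918163, between genes) the fold was 23.7 in WT, 21.7 in shControl, 23.1 in KO, 21.1 in shDdx5 and 8.83 without antibody. An intronic site of Kctd16, which encodes an auxiliary subunit of GABA-B receptors, at chr18:40308037-40308437 had 28.7 in WT, 27.3 in shControl, 28.8 in KO and 21.9 in shDdx5, with no no-antibody peak. The fifth, between genes near the lincRNA Gm28502 at chr15:75086677-75087024, had 14.3 in WT, 14.9 in shControl, 13.9 in KO and 14.8 in shDdx5, also with no no-antibody peak. Calling in the no-antibody list therefore differed within this set, and its part in these peaks was not tested.

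Of the 10 strongest shared promoter sites, 5 were at non-coding genes or repeated sequence. Gm26917, a lincRNA on chromosome 17, and CT010467.1, an annotated ribosomal RNA gene beside it, had low folds over a very high background: 3.28 in WT and 3.75 in shControl at Gm26917, and 2.02 and 2.24 at CT010467.1, where the local background was 500 fragments in WT and 242 in shControl. Both were also called in KO, shDdx5 and the no-antibody list. Gm23935, an annotated microRNA gene inside Zc3h7a on chromosome 16, had folds of 25.8 in WT and 24.5 in shControl, and the 31 bases at its summit occur 2 times in the genome, as do those of Gm10801 on chromosome 2 (6.85 and 5.94). Fau-ps2, a pseudogene within Drg1 on chromosome 11, had 2.49 and 2.74.

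The other 5 were promoters of protein-coding genes whose summit sequence is unique. Garnl3, which encodes a protein related to GTPase activators, had a fold of 5.75 in WT, 6.45 in shControl, 5.28 in KO and 7.56 in shDdx5, and 4.61 without antibody. Dazap1, an RNA-binding protein gene, had 5.39 in WT, 5.21 in shControl, 5.38 in KO and 6.38 in shDdx5. In both genes the shDdx5 value was the highest and the 2 unperturbed values were close.
Carm1, an arginine methyltransferase gene, had 6.56 in WT, 6.06 in shControl, 7.09 in KO, 7.61 in shDdx5 and 3.23 without antibody. Camsap1, which encodes a protein of microtubule minus ends, had 5.94 in WT, 7.58 in shControl, 6.37 in KO and 7.78 in shDdx5. Sertad2, a transcriptional coregulator gene, had 6.26 in WT, 6.93 in shControl, 4.65 in KO and 9.13 in shDdx5. At these promoters 26 to 39 fragments lay over the WT summit and 27 to 36 over the shControl summit, so a difference of a few fragments between the cultures was not resolved.

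Sites shared by WT and shControl were called in the remaining MEF lists more often than the rest. A KO peak was present at 64.4% (61.8 to 66.8) of shared WT peaks and 13.6% (12.7 to 14.5) of WT-only peaks, and a shDdx5 peak at 76.9% (74.6 to 79.1) and 17.0% (15.98 to 18.04). For shControl the corresponding shares were 64.0% and 7.47% in KO and 76.4% and 12.1% in shDdx5. Of the 1398 pairs, 818 (58.5%) had a peak in all 4 S9.6 lists, and so did 75 of the 78 pairs with a q value of 1e-05 or lower in both cultures. At promoters 70.1% of pairs were in all 4 lists, and elsewhere 28.9%. By contrast, 77.2% of WT-only and 84.8% of shControl-only peaks were in neither KO nor shDdx5.

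The shared peaks also met the no-antibody list more often. A no-antibody peak was present at 3.51% (2.67 to 4.61) of shared WT peaks and 0.610% (0.430 to 0.864) of WT-only peaks, a difference of 2.90 points (2.02 to 4.02). The no-antibody share of shared WT peaks was 3.39% at promoters and 3.82% elsewhere. Without the peaks that overlap a no-antibody peak, 21.01% of WT and 11.1% of shControl peaks were shared.

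**Figure D3:**
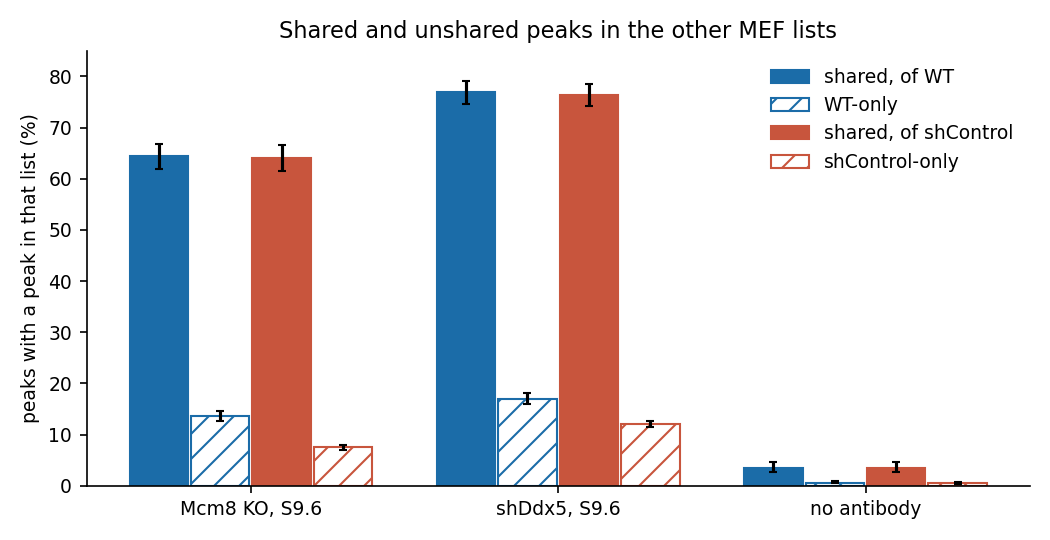
Share of peaks, in percent, with a peak in the KO, shDdx5 or no-antibody list, for shared (filled) and unshared (hatched) peaks of WT (blue) and shControl (red), with 95% Wilson intervals. The filled bars stand at 64.0% to 76.9% for the S9.6 lists, the hatched bars at 7.47% to 17.0%, and all bars for the no-antibody list are under 4%.

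Strong peaks of 1 culture alone were few. Of 196 WT peaks with a q value of 1e-05 or lower, 29 had no shControl peak, and of 198 such shControl peaks 24 had no WT peak. Most of these were called elsewhere: 21 of the 29 in KO or shDdx5, and 21 of the 24. A strong peak missing from 1 unperturbed culture was thus usually called in a perturbed one.

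The strongest WT-only site was in an intron of the F-box gene Fbxw4 (chr19:45649935-45650325), with a fold of 16.4 in WT, 12.3 in KO and 9.54 in shDdx5 and no peak in shControl. Repeats made up 85.7% of the 300 bp around its summit. At the start of Inpp5f, an inositol phosphatase gene on chromosome 7, the fold was 7.31 in WT, 6.54 in KO and 4.11 in shDdx5. Wee1, which encodes the kinase that restrains CDK1 before mitosis, had 5.92 in WT with 24 fragments over the summit and was in no other list.
The antisense gene 4930524O07Rik on chromosome 9 had 6.04 in WT, 4.42 in KO, 4.50 in shDdx5 and 5.54 without antibody. Atg4d, an autophagy protease gene, had 5.84 in WT and 3.57 in KO only. Thus 4 of the 5 WT-only sites were also called in KO.

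Among shControl-only sites, the start of the RING-finger gene Rnf44 on chromosome 13 had a fold of 6.02 in shControl, 3.49 in KO and 3.18 in shDdx5. A site in an intron of Nell2, near the transcript 1700129L04Rik on chromosome 15, had 7.17 in shControl and 6.07 in KO. Per2, a circadian clock gene, had a site 989 bp downstream of a TSS with 5.41 in shControl, 2.65 in KO and 3.17 in shDdx5.
Gm10800 on chromosome 2, whose summit sequence occurs 2 times in the genome, had 3.08 in shControl and 2.12 in shDdx5. An intronic site of Gm26561 on chromosome 17 had 6.69 in shControl, 4.003 in KO, 4.77 in shDdx5 and 3.87 without antibody. None of these 5 was in shControl alone.

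Shared sites differed from the rest in base composition. In the 300 bp around the summit the median GC content was 61.3% for shared WT peaks and 50.7% for WT-only peaks, and 61.3% and 49.7% for shControl. The ratio of observed to expected CpG, which is low over most of the genome and high in CpG islands, had a median of 0.68 at shared and 0.22 at WT-only peaks, and 0.68 and 0.19 in shControl. Among promoter peaks alone the gap was smaller: 0.76 at shared against 0.63 at WT-only and 0.54 at shControl-only peaks. Away from promoters the medians were 0.19 at shared and 0.18 at WT-only peaks, and 0.18 and 0.16 in shControl, so the CpG difference was mostly that between promoters and other places.

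A sequence able to form a G-quadruplex, written as 4 runs of GGG with 1 to 7 bases between runs on either strand, was in the summit window of 29.9% (27.2 to 32.8) of shared WT promoter peaks and 22.3% (20.2 to 24.5) of WT-only promoter peaks. In shControl the shares were 29.4% and 19.5%, and 21.8% of 300 bp windows centred on the starts of 21829 protein-coding genes held it. The match describes letters in a window, and no quadruplex was measured. Summit sequences with more than 1 copy in the genome were at 1.08% of shared and 2.16% of WT-only peaks, and at 1.07% of shared and 3.27% of shControl-only peaks.

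Counted by genes, which takes promoter peaks only, WT recurrence was higher than the 41.6% of WT promoter peaks and the 21.5% of all WT peaks. A gene called in both lists did not need overlapping peaks. A peak counted for each gene with a start within 1 kb of its midpoint, and the intervals do not allow for this reuse. Of 21911 protein-coding genes, 2479 (11.3%) had a WT promoter peak, 3231 (14.7%) a shControl one and 1287 (5.87%) both. Thus 51.9% (49.9 to 53.9) of the genes with a WT promoter peak had a shControl one, against 14.7% of all genes. In 1151 of the 1287 genes a WT and a shControl promoter peak overlapped. Genes called in both were also called in KO in 76.7% and in shDdx5 in 88.3% of cases. For KO the share was 39.5% of genes called in WT alone, 34.8% in shControl alone and 16.04% of all protein-coding genes. Genes called in WT alone were in shDdx5 in 53.5% and those in shControl alone in 51.6%, where 23.1% of all protein-coding genes had a shDdx5 promoter peak.

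Genes with CpG-rich promoters were called more often and recurred more often. With genes ranked by the CpG ratio of the 1000 bp around their start, 2.31% of the lowest quartile group and 20.1% of the highest had a WT promoter peak, 3.30% and 25.7% a shControl one, and 0.751% and 11.6% both. Among genes with a WT promoter peak, the share with a shControl one was 32.5% (24.98 to 41.1) in the lowest quartile group and 57.7% (54.7 to 60.6) in the highest. A TSS on the opposite strand within 1 kb was present at 43.4% (40.8 to 46.2) of genes called in both, 30.3% of those called in WT alone, 32.3% in shControl alone and 15.8% in neither. Of genes with a WT peak, 60.7% (57.5 to 63.8) with such a divergent start recurred in shControl, against 46.7% (44.2 to 49.1) without. The same peak could count for both genes of a divergent pair. G over C skew in the 300 bp after the start, which favours R-loops, had a median of 0.068 in genes called in both, 0.067 in WT alone, 0.070 in shControl alone and 0.053 in neither.

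**Figure D4:**
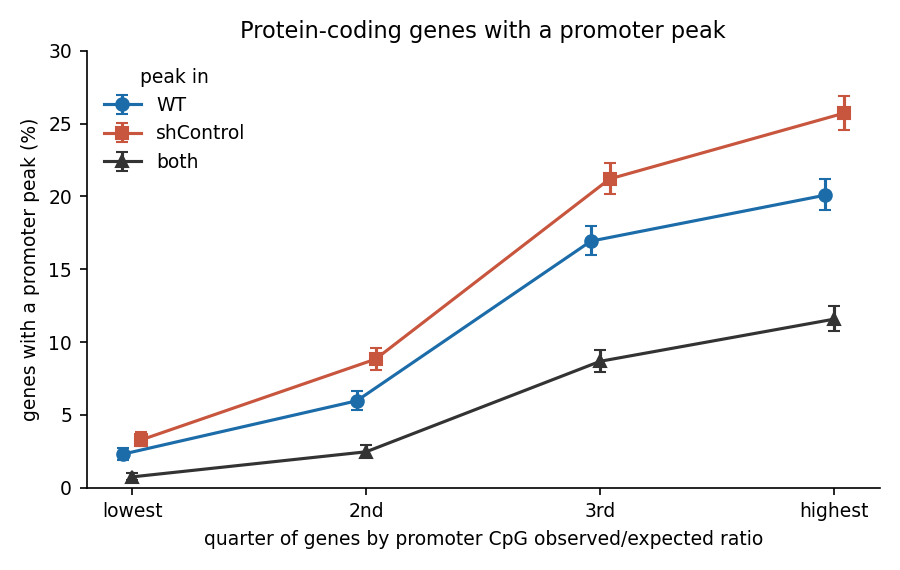
Share of protein-coding genes, in percent, with a promoter peak in WT (blue), shControl (red) or both (black), by quartile group of the promoter CpG observed/expected ratio, with 95% Wilson intervals. All 3 lines rise from the lowest to the highest quartile group, the one for both from 0.751% to 11.6%.

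The gene groups were read against the 5.87% of all protein-coding genes called in both cultures. Called in both means a promoter peak in each list, and the peaks need not overlap. SR proteins and hnRNPs, which bind and splice pre-mRNA, stood highest, with 10 of 31 (32.3%, 18.6 to 49.9) called in both, 14 in WT and 17 in shControl. Hnrnpl had folds of 4.52 in WT and 4.85 in shControl, Hnrnpa2b1 4.95 and 5.26, Hnrnpk 6.004 and 4.88, and Hnrnpul2 4.64 and 5.04. Cyclins and cyclin-dependent kinases followed with 8 of 43 (18.6%, 9.74 to 32.6), among them Ccnk (4.64 and 4.29), Ccnf (4.03 and 5.12), Ccng2 (4.79 and 3.99) and Ccna2 (3.87 and 4.02). The intervals of these groups lay above the background, while those of the other groups with 2 or more genes called in both included it or, for heat shock genes, lay just above. That background covers all protein-coding genes and is not matched for promoter CpG. In the highest quartile group of genes by promoter CpG ratio, 11.6% were called in both. That share lies within the intervals of the cyclin and heat shock groups.
Heat shock proteins and DNAJ chaperones had 9 of 71 called in both (12.7%, 6.81 to 22.4), and 24 in WT against 18 in shControl. Among the 9 was Dnaja3, whose WT and shControl peaks lay at different starts of the gene and did not overlap. The constitutive chaperone gene Hspa8 had folds of 3.90 and 5.15 and Dnajc17 of 4.78 and 5.00, in WT and shControl in that order.

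Genes of translation were called in both cultures at shares whose intervals included the background. Of 84 cytosolic ribosomal protein genes, which are highly transcribed, 7 (8.33%) had a WT and 11 (13.1%) a shControl promoter peak, and 2 (2.38%, 0.655 to 8.27), Rps23 (4.48 and 4.91) and Rps27l (4.37 and 4.50), had both. Mitochondrial ribosomal proteins had 6 of 78 in both (7.69%, 3.57 to 15.8), among them Mrpl18 (4.20 and 4.12, and 3.87 without antibody). For translation initiation genes it was 6 of 55 (10.9%, 5.10 to 21.8). The latter included Eif5a (4.76 and 5.13), Eif2s1 (4.003 and 6.62), which encodes the alpha subunit of eIF2, and Eif2ak4 (7.31 and 6.44), which encodes not a factor but the kinase that phosphorylates that subunit. Proteasome subunits had 3 of 39 in both, and DEAD and DEAH box helicases 5 of 53, with Ddx54 at 5.93 in WT and 4.04 in shControl.

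Of 18 immediate-early genes, which respond quickly to serum, 3 (16.7%, 5.83 to 39.2) were called in both: Jun (3.91 and 4.73), Jund (4.03 and 3.76) and Egr1 (3.54 and 4.49). Among 394 Zfp zinc finger genes 19 (4.82%) were in both, with Zfp438 at 5.04 in WT and 8.81 in shControl and Zfp687 at 4.81 and 4.22. Collagens had 1 of 44 in both (Col27a1, 2.80 and 3.14), small nucleolar RNA host genes 1 of 14 (Snhg18, 4.55 and 3.85), fibroblast markers 1 of 15 (Vim, 3.14 and 3.76) and minichromosome maintenance genes 1 of 9 (Mcm4, 5.15 and 4.32). The Col27a1 peaks lay at different starts of the gene, chr4:63214250-63214504 in WT and chr4:63233624-63233960 in shControl, so no site recurred there. The intervals of these groups included the background. No gene was called in both among 67 clustered histone genes (upper limit of the interval 5.42%), 39 HOX genes (8.97%), 49 keratins (7.27%) or 19 markers of other cell types (16.8%), of which only the histone limit lay below the background. Of the histone genes, 7 had a no-antibody promoter peak, 0 a WT and 2 a shControl one. Of all protein-coding genes, 1.24% had a no-antibody promoter peak. Of the tissue-restricted receptor genes, 4 of 1092 olfactory receptors had a WT and 5 a shControl promoter peak, with 0 in both (upper limit 0.351%), and of 326 vomeronasal receptors 0 had a WT and 1 a shControl peak (upper limit for both 1.16%).

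Of 5 reference loci of hybrid assays, 0 had a WT and 1 a shControl promoter peak, where 11.3% and 14.7% of all protein-coding genes had one. The mouse counterparts of the human positive loci RPL13A, CALM3 and TFPT, and Actb, had no WT promoter peak, and of them only Rpl13a had one in shControl (4.64). Calm3 was called in KO (2.77) and shDdx5 (5.10), Actb in shDdx5 (3.61), and Tfpt in no list, like the negative locus Snrpn. Of the genes the study itself turns on, Chchd7 was called in both cultures, at 4.17 in WT and 6.01 in shControl, and at 6.03 in KO and 6.66 in shDdx5. Ddx5 (4.02) and the RNA helicase gene Dhx9 (4.05) were called in shControl and not in WT. Mcm8, Cdk4 and Armc10 were called in neither unperturbed culture but in both perturbed ones. The folds in KO and shDdx5 were 3.31 and 4.31 at Mcm8, 3.75 and 3.73 at Cdk4 and 7.35 and 7.82 at Armc10. The Mcm8 peaks of KO and shDdx5 did not overlap. Of all protein-coding genes, 16.04% had a KO and 23.1% a shDdx5 promoter peak. The paper shows Chchd7, Armc10 and Cdk4 as examples chosen from these same libraries, so their calls are no independent test.

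Chromosomes 7 and X departed from the others. On 18 autosomes the shControl list held 1.66 to 2.23 times as many peaks as the WT list, with a median of 1.94. On chromosome 7 it held 406 peaks against 415, a ratio of 0.98, so that the chromosome carried 6.40% (5.83 to 7.03) of WT and 3.31% (3.01 to 3.64) of shControl peaks. On the X chromosome it held 187 against 32, or 1.53% (1.32 to 1.76) against 0.494% (0.350 to 0.696). The KO values lay near those of WT and the shDdx5 values near those of shControl: chromosome 7 carried 5.99% of KO and 3.42% of shDdx5 peaks, and X 0.541% and 1.21%.

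On chromosome 7 the median background exceeded that of the other autosomes in WT and KO and lay below it in shControl and shDdx5, while on X it lay below in all 4 lists. On chromosome 7 the median background was 2.16 fragments in WT, against 1.96 on the other autosomes, and 1.48 in shControl, against 1.59. In KO it was 1.82 against 1.67 and in shDdx5 1.92 against 2.13. On X the median was 1.62 in WT, 1.45 in shControl, 1.31 in KO and 1.71 in shDdx5, although shControl held more X peaks than WT. The share of shControl peaks with the list's lowest background, which in MACS2 is the genome-wide level, was 46.8% on chromosome 7, 74.9% on X and 37.1% on the other autosomes, and in WT it was 10.6%, 46.9% and 15.1%. Whether the cultures carried different numbers of these chromosomes was not tested. Of the chromosome 7 peaks, 82 of 415 in WT (19.8%) and 83 of 406 in shControl (20.4%) were shared. The WT share lay within the 16.04% to 25.6% of the other autosomes, and the shControl share above their 8.06% to 13.7%, in a list that held comparatively few peaks there. On X, 8 WT and 8 shControl peaks were shared. With both chromosomes left out 21.6% of WT and 11.2% of shControl peaks were shared. Rpl13a, Calm3, Tfpt and Snrpn are on chromosome 7, as are the WT-only sites at Inpp5f and Wee1.

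**Figure D5:**
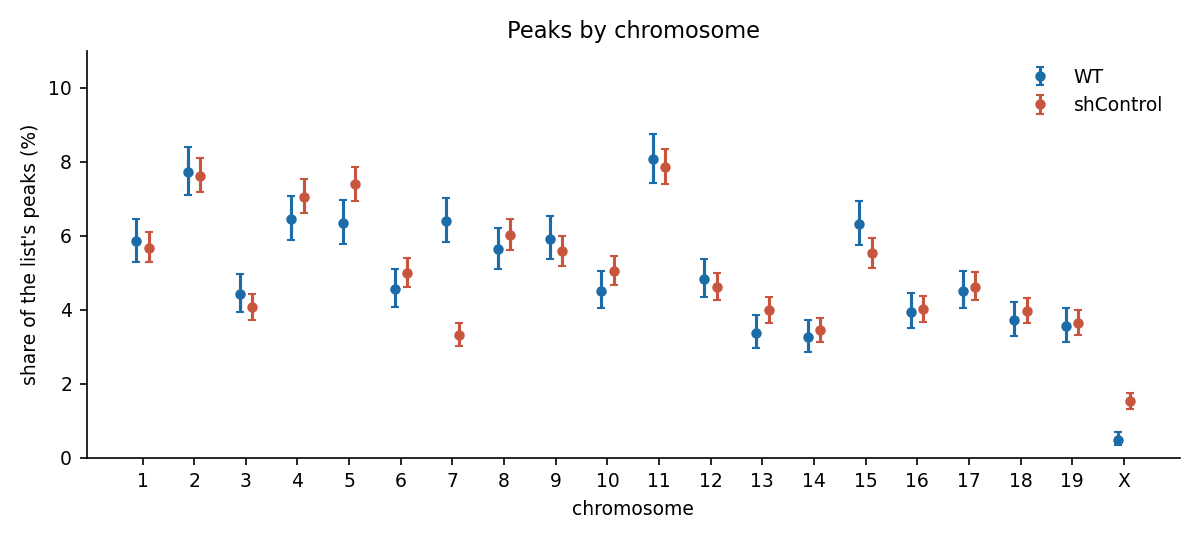
Share of each list's peaks, in percent, on each chromosome (x axis) for WT (blue) and shControl (red), with 95% Wilson intervals. The points lie near each other on most chromosomes and are farthest apart on chromosome 7 (6.40% and 3.31%). On X they stand at 0.494% and 1.53%.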

How the data were processed

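Peak lists of 5 MEF CUT&Tag libraries were used, 1 library per group; the HEK293 lists of the series were not used. Per the submitters' processing notes, reads were treated with Trimmomatic, Bowtie2 and MACS2 2.1.2, and coordinates are mm10. The paper's methods name a different MACS2 version. The deposited narrowPeak files give for each peak the ratio of summit signal to background (fold enrichment), a −log10 p-value and a −log10 q-value, all as the authors' peak caller wrote them; peaks were called per library, with the background taken from the same library, and the calling threshold is not given in the sources used here. The deposited score column, made by the peak caller for display, entered no result. The lowest −log10 p was 3.01 in WT and 3.00 in shControl. The study compared lists with MAnorm, which needs reads.

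From the files, peaks with at least 1 bp in common were counted as shared (Python 3.11.15, pandas 2.3.3, numpy 2.4.6, scipy 1.17.1). Positions were read against GENCODE M21 TSSs of all genes, with a promoter half-width of 1 kb, and sequence from RefSeq's GRCm38 assembly, the same build. Summit signal and background were solved from fold = (signal + 1) / (background + 1) and the Poisson p-value for 99.9% of WT and 100.0% of shControl peaks, and depth from the lowest background divided by the shortest peak width. The overlap and solving steps were tested on simulated data. Shares have Wilson and differences Newcombe 95% intervals; differences between shares of the same peaks have a paired normal interval. With 1 library per group there is no p-value.

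Named sites were the 10 promoter and 5 other shared sites with the highest lesser −log10 q, the 5 strongest WT-only and shControl-only peaks, up to 4 members per gene list and fixed loci; the site at Gm13341 and the pairs with a fold of at least 10 were picked after their values were seen. The members and the 23 gene lists were chosen with earlier results of these data known. The result of 1 of these lists is not reported here.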

Additional observations from a re-analysis of the deposited data

How the results depend on the processing

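All values are percent or percentage points and cover counting error only. No paired analysis was possible because each group is 1 library. The 6 results were recomputed under 61 alternatives in all: 29 stayed within the interval given in the report, 30 left it with the same sign and 2 reversed. The share of WT peaks shared (21.5) became 14.3 with 50% of both peaks in common, 15.4 with summits at most 200 bp apart, 24.7 within 1 kb, 18.02 with equal numbers of strongest peaks, 30.7 at a fold of at least 4, 33.2 at q 0.05 and 39.8 at q 1e-05; the shControl share (11.4) became 7.57, 8.15, 13.1, 18.04, 18.04, 20.5 and 39.4 in the same order. The promoter difference of WT peaks (44.2) was 33.3 at a fold of 4, 36.2 at q 0.05, -7.02 at q 1e-05, 41.2 within 1 kb, 40.6 with the summit rule and 37.6 with promoters of 3 kb; that of shControl peaks (50.3) was 45.3, 45.8, -14.0 and 47.0 under the first 4 and 45.3 with promoters of 3 kb. The difference between the strongest and weakest peaks (39.8) was 29.8 with 50% in common, 31.7 with the summit rule, 54.3 at a fold of 4 and 43.8 at q 0.05. The gene share (51.9) was 44.8 at a fold of 4, 35.8 at q 1e-05 and 44.7 with equal numbers. Limits on fold or q were applied to both lists, so a peak whose partner failed the limit counted as unshared. The cause of these changes was not tested beyond what each setting does to the lists. Leaving out peaks with a no-antibody peak, merging peaks within 500 bp and taking all sequences in the files kept every result they were applied to within its interval. The share of WT and shControl less that of the next lowest pair of lists, at equal numbers (-2.28), was -2.15, -1.70, -2.30 and -5 with the 4000, 2000, 1000 and 500 strongest peaks, chosen after seeing the data. Depth limits what an unshared peak shows: a site with fewer than 6 or 7 fragments over its summit was not detectable.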
